A study of Mus musculus with 26 samples.

Results

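The genes described here code for 9 proteins of the tight junction: the claudins Cldn1 (ENSMUSG00000022512), Cldn2 (ENSMUSG00000047230), Cldn3 (ENSMUSG00000070473), Cldn5 (ENSMUSG00000041378) and Cldn12 (ENSMUSG00000046798), occludin (Ocln, ENSMUSG00000021638), the scaffold proteins ZO-1 and ZO-3 (Tjp1, ENSMUSG00000030516, and Tjp3, ENSMUSG00000034917) and cingulin (Cgn, ENSMUSG00000068876). They were chosen by symbol, and each symbol matched 1 of the 55416 genes listed for the series. All 9 were among the 13697 genes with a mean of at least 1 CPM (counts per gene scaled to the size of the library) in both groups of mice, which were the genes tested. Their mRNA was measured by RNA sequencing of the choroid plexus (ChP) of the 4th ventricle, the tissue that makes cerebrospinal fluid and separates it from blood.

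Tight junctions seal the space between neighbouring cells near the apical surface. Claudins form the paracellular strands and set which ions and water pass, occludin spans the membrane beside them, ZO proteins tie both to the actin cytoskeleton, and cingulin binds the ZO proteins and the cortical actomyosin. In the ChP the barrier lies between the epithelial cells, whose capillaries are leaky, whereas in most of the brain it lies in the endothelium, where Cldn5 is the leading claudin. Cldn2 is known as a claudin of leaky epithelia that lets cations and water through, and Cldn1 and Cldn3 as sealing claudins.

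The 2 main groups were adult male C57Bl6J mice that had sham surgery (Ctrl) or lost the suprachiasmatic nuclei, the central circadian pacemaker, to an electrolytic lesion (SCNx). Both had 12 mice kept in constant darkness, and 1 was killed at each 4 h step between CT0 and CT44 (circadian time), so every time point of a group is 1 mouse. The KO group held 2 adult male FoxJ1-ERT2-Cre+/-; Bmal1fl/fl mice fed tamoxifen, 1 killed at ZT7 and 1 at ZT18 of a light-dark cycle. The Foxj1 promoter drives the Cre in cells with motile cilia, those of the ChP included, and not in the ChP alone, and per the labels recombination was tested in the liver. Ctrl and SCNx tissue was pulled out with pincers and made into mRNA libraries. The KO tissue was frozen, cut out by laser-capture microdissection and made into libraries with a stranded total RNA kit for low input. By the methods of the study, the KO mice were also older, were kept at another facility and gave RNA of lower integrity. Genotype therefore cannot be told apart from protocol, age and facility. The 24 Ctrl and SCNx libraries held between 38751162 and 49527614 estimated counts, and the KO libraries 17425176 and 18059213. Each of the 10 markers of ChP epithelium was detected, with summed CPM from 143055 to 166592 in Ctrl and from 105600 to 167134 in SCNx. SCNx CT32 had the lowest sum, and the 5 astrocyte markers summed there to 817 CPM and in Ctrl CT4 to 705, against medians of 40.6 in SCNx and 36.8 in Ctrl. The 10 hepatocyte markers summed to 11513 CPM in SCNx CT0 and 2452 in Ctrl CT16, against medians of 2.80 in SCNx and 0.788 in Ctrl.

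The sequences before the transcription start sites of 4 members are shown because these genes carry the results that follow: Cldn2 had the highest level, Cldn12 came nearest to a rhythm in Ctrl, and Cgn and Tjp3 were the members with an E-box, the sequence CACGTG that BMAL1 and CLOCK bind. Each run is the 250 bases upstream of a RefSeq start site (GRCm38.p6, another build than that of the counts), written 5′ to 3′ on the gene's strand, which is the minus strand for Cgn, Tjp3 and Cldn12 and the plus strand for Cldn2. Capitals mark CACGTG in Cgn and Tjp3 and the TATA box sequence TATAAA in Cldn2.
Cgn chr3:94786483-94786732: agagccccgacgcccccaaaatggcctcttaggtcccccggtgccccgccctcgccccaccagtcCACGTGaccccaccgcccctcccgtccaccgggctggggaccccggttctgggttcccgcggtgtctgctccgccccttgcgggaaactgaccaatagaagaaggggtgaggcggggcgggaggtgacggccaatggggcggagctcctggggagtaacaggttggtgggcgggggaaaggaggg
Tjp3 chr10:81291268-81291517: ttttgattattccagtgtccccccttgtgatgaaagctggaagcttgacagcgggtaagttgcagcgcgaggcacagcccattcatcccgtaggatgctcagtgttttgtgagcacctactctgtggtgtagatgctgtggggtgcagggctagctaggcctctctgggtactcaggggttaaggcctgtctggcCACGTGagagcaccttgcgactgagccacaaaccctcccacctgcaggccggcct
Cldn2 chrX:139800558-139800807: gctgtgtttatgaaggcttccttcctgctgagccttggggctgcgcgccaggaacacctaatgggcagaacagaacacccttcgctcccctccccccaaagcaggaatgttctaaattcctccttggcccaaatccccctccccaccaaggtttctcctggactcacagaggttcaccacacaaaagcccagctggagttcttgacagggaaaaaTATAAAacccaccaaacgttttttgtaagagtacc
Cldn12 chr5:5514790-5515039: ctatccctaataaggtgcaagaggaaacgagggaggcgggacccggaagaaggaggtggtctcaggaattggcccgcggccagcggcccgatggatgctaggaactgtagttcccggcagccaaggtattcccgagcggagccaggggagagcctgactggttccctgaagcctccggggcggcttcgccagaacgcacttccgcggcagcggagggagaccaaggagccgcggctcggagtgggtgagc

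The E-box began 185 bases before the start site of Cgn and 55 bases before 1 of the start sites of Tjp3, and the TATAAA of Cldn2 began 35 bases before its start site. All 9 members matched the RefSeq table by symbol, with 13 start sites in all. Both strands of the windows were searched. CACGTG was found in 2 of the 13 member windows and in 6.02% of all 32851 windows. TATAAA was in 1 member window and in 12.4% of all windows. The D-box TTATGTAA and the related TTACGTAA, which PAR bZIP factors bind, were in 0 member windows and in 0.819% and 0.113% of all windows. AGGTCA, the core site of REV-ERB and ROR receptors, was in 2 member windows (Ocln and the other Tjp3 start site) and in 14.02% of all. AGAACA, a core site of the glucocorticoid receptor, was in the Cldn2 window alone among the members and in 16.1% of all.

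The claudin that lets cations and water through stood far above the others in Ctrl. Levels between genes were compared as CPM per kb of exon, with exon lengths from another annotation (GENCODE M21) than that of the counts. Cldn2 had a mean of 166 ± 14.4 CPM per kb (SD, n = 12 mice), 3.23 times the 51.5 ± 5.54 of Cldn1. Ocln followed with 35.7 ± 2.52 and Tjp3 with 16.5 ± 1.41 CPM per kb. From Cldn2 to Tjp3 no library of the higher gene fell into the range of the next one.

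Below them, 4 members lay close together on the same scale. The means were 11.5 ± 1.15 CPM per kb for Cldn3, 11.2 ± 0.819 for Cgn, 10.4 ± 1.03 for Tjp1 and 10.03 ± 0.808 for Cldn12 (SD, n = 12). Their ranges overlapped, Cldn3 was above Cgn in 6 of the 12 Ctrl libraries, and with the longest coding transcript as the length Cgn came before Cldn3. Cldn5 was the lowest at 3.31 ± 1.10 CPM per kb, below Cldn12 in each of the 12 libraries, and 50.2 times below Cldn2.

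Reads could mostly be assigned to a single gene. No stretch of 50 bases of 8 members occurs in transcripts of another gene, whereas for Cgn 17.2% of such stretches do, so its level is less certain. An antisense gene (Wbscr25) overlaps an exon of Cldn3, and Apba3 overlaps exons of Tjp3 on the opposite strand. The search covered both strands, so in this annotation no full read of 50 bases lies in both genes of such an overlap. Whether the counting used strand is not given in the sources used here, so shorter reads of the overlaps cannot be assigned with certainty.

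The members differed in how much they varied between mice. The coefficient of variation of CPM over the 24 libraries was 7.55% for Cldn12, 7.74% for Cgn, 8.36% for Ocln, 9.54% for Tjp3, 10.8% for Cldn2, 11.3% for Tjp1, 11.4% for Cldn1 and 16.4% for Cldn3, beside a median of 10.8% over all tested genes. Cldn5 varied most, with 36.0%, more than 89.4% of the tested genes. Its counts were also the smallest, from 106 to 411 per library.

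**Figure D1:**
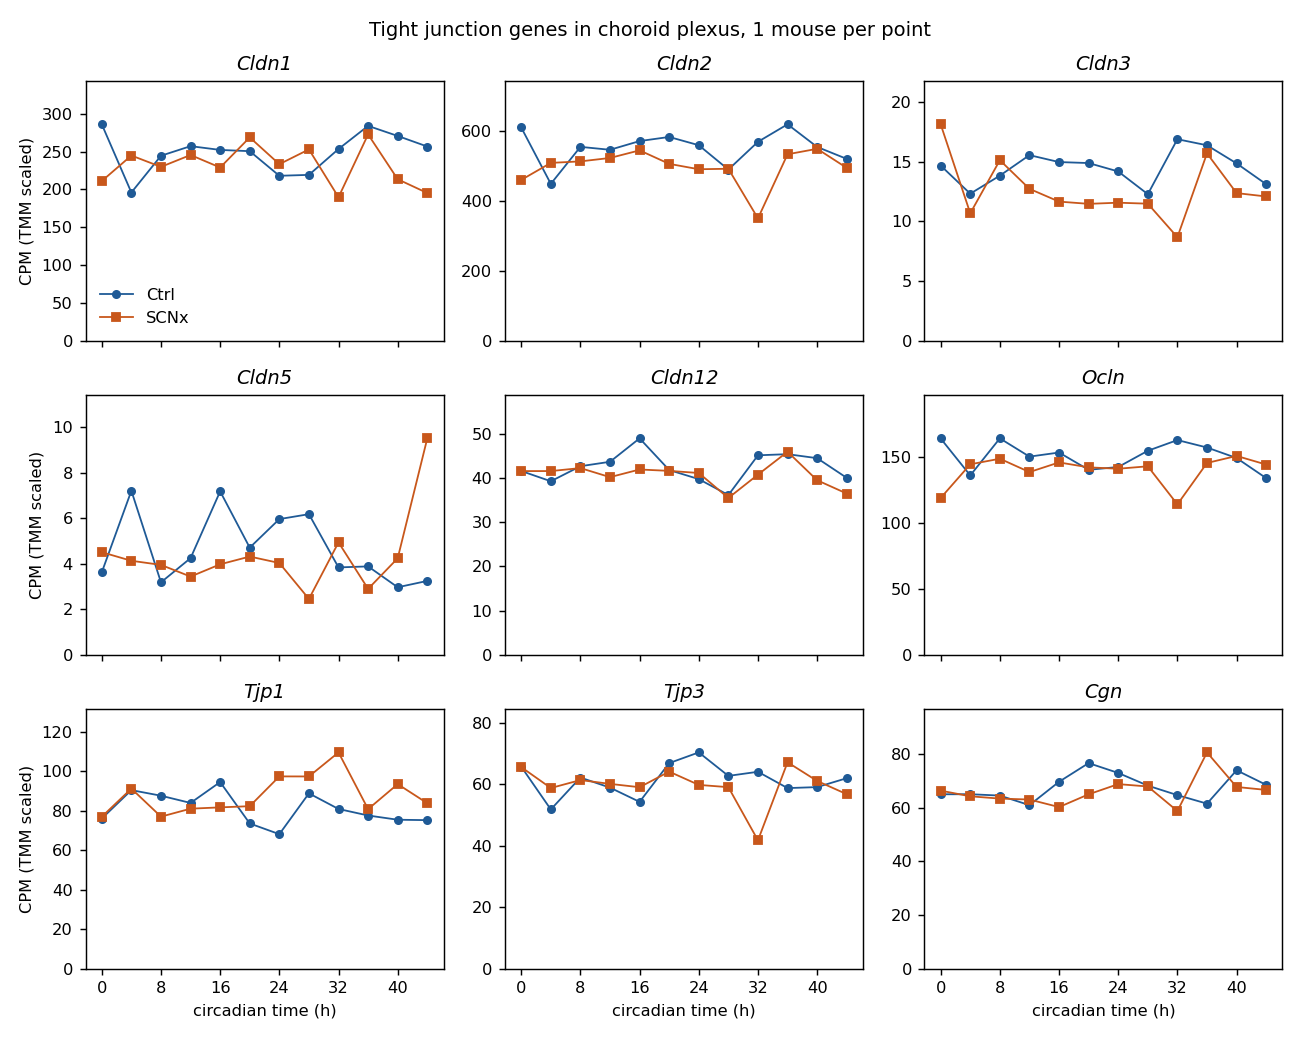
CPM (TMM scaled, axes from 0) of the 9 members against circadian time in hours, with 1 mouse per point, Ctrl as blue circles and SCNx as orange squares. Cldn1, Cldn2, Cldn3, Ocln, Tjp3 and Cgn had their lowest SCNx value at CT32, and Cldn5 reached 9.52 CPM at SCNx CT44.

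Whether the members follow a circadian rhythm was tested with a 24 h cosine curve per group. In Ctrl, 0 of the 9 passed an adjusted p of 0.05 in edgeR's quasi-likelihood test, where 10.7% of all tested genes did, and in SCNx 0 of 9 passed, where the share was 0.0%. At an unadjusted p under 0.05 there was 1 member in Ctrl (Cldn12) and 0 in SCNx, where 24.8% and 14.8% of all genes had such a p. With a rank test of 24 h templates, 0 members passed in either group, where 926 of the 13697 tested genes passed in Ctrl and 0 in SCNx. The unadjusted p of this rank test in Ctrl was under 0.05 for Cgn, Cldn12 and Cldn3, and for 3642 of the tested genes. With DESeq2 1 member passed in Ctrl (Cldn12) and 0 in SCNx. The median amplitude, the distance from the fitted mean to the peak on the log2 scale, was 0.10 in Ctrl and 0.06 in SCNx for the members and 0.11 and 0.09 for all tested genes. The clock genes Ciart, Nr1d1, Arntl, Dbp and Per2 give the scale, with log2 amplitudes in Ctrl of 2.77, 2.50, 2.23, 2.04 and 1.30.

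Cldn12, a claudin linked to calcium passage in the gut, came nearest to a rhythm in Ctrl. It ran from 36.1 CPM at CT28 through a median of 42.2 to 49.0 at CT16. The values at CT4 and CT28, 39.3 and 36.1 CPM, were lower than those at CT12 and CT36, 43.7 and 45.4, and CT16 and CT40, 49.0 and 44.5. The values at CT8 and CT32 were 42.7 and 45.1 CPM, so that both cycles were lowest early in the subjective day, and the second was already as high at CT32 as at CT36 and CT40. The fitted amplitude was 0.13 ± 0.04 (SE, log2), a 1.19-fold difference between peak and trough with the peak at CT13.9, and the adjusted p was 0.0677. Of 36 alternative fits, 3 called Cldn12 and 33 did not, with adjusted p-values up to 0.203: the adjusted p was 0.0470 with DESeq2's likelihood ratio test, 0.0474 with a linear trend over time and 0.0429 without SCNx CT28. Without Ctrl CT16, the highest Cldn12 library and the Ctrl library with the hepatocyte transcripts, it was 0.160, and without Ctrl CT16 and SCNx CT0 together 0.142, with an amplitude of 0.11. In SCNx, Cldn12 ran from 35.5 to 45.9 CPM with an amplitude of 0.05 (adjusted p = 0.692), and the test of a different rhythm in SCNx than in Ctrl gave an adjusted p of 0.570.

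Cgn ran in Ctrl from 60.9 CPM at CT12 through a median of 66.6 to 76.6 at CT20. The highest values of the cycles fell at CT20 and CT40, with 76.6 and 73.9 CPM, and the lowest at CT12 and CT36, with 60.9 and 61.5. Its amplitude was 0.10 ± 0.04 (SE, log2) with the peak at CT20.7 (adjusted p = 0.253). The rank test gave an adjusted p of 0.0694 for Cgn and 0.0787 for Cldn12. In SCNx the amplitude of Cgn was 0.02.

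Cldn1 ran in Ctrl from 196 CPM at CT4 through a median of 253 to 286 at CT0, with an amplitude of 0.14 and an adjusted p of 0.378. The highest and the lowest library of the group were neighbours in time. With Cldn12 and Cgn, it made 3 of 9 members under the adjusted p of 0.4, the threshold of the study for its own tests, which 41.7% of all tested genes passed in Ctrl. In SCNx 0 of 9 were under it in this cosine fit, and 22.4% of all. In the rank test, the adjusted p in Ctrl was under 0.4 for every member except Cldn5 (0.563) and Cldn2 (0.706). That held for 6932 of the 13697 tested genes.

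The other 6 members had adjusted p-values for a rhythm in Ctrl from 0.492 for Ocln to 0.761 for Cldn5. Cldn2 ran from 449 CPM at CT4 through a median of 558 to 620 at CT36. Its amplitude was 0.08, and the upper 95% limit of 0.24 allows a peak to trough difference of up to 1.40-fold. The same limit was 1.32-fold for Ocln, 1.40-fold for Tjp3, 1.45-fold for Tjp1 and 1.69-fold for Cldn3. For Cldn5, the most variable member, it was 2.69-fold. Tjp3 passed in Ctrl, with an adjusted p of 0.0463, when Ctrl CT4 and SCNx CT32, the libraries richest in astrocyte and neuron transcripts, were left out. With all libraries it was 0.648, and Tjp3 was lowest in both of them, at 51.9 and 41.8 CPM.

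In SCNx the adjusted p-values of the 9 members lay between 0.506 for Cldn5 and 0.976 for Cldn3. The test of the difference of the rhythm between SCNx and Ctrl passed for 0 of the 9, where 2.12% of all genes passed, with 0 members at an unadjusted p under 0.05 and adjusted p-values from 0.570 for Cldn12 to 0.970 for Cldn2. A smaller amplitude in SCNx than in Ctrl was therefore not shown for any member.

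**Figure D2:**
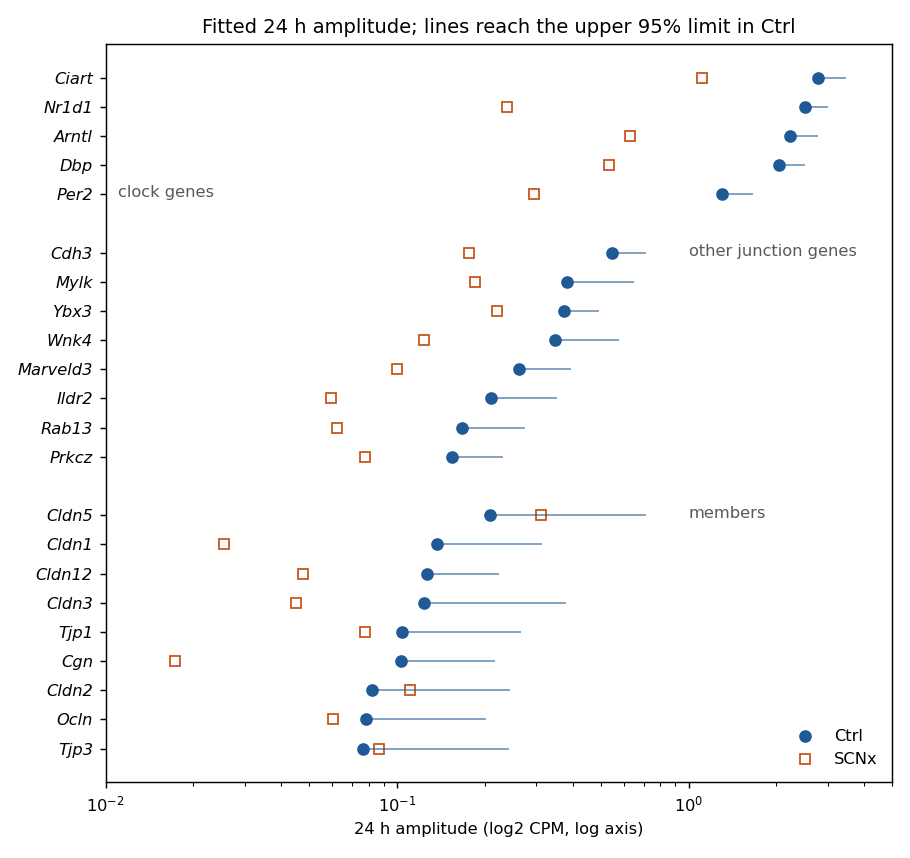
Fitted 24 h amplitude (log2 CPM, log axis) of the 9 members, of 8 other junction genes with a rhythm in Ctrl and of 5 clock genes, as filled circles in Ctrl and open squares in SCNx; lines reach the upper 95% limit in Ctrl. The members lay between 0.08 and 0.21 in Ctrl, and the clock genes between 1.30 and 2.77.

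Other junction genes were read from wider lists in the same fit. The wider lists of junction genes held 75 symbols, 74 of them in the table and 58 tested. Of these 58, 9 were rhythmic in Ctrl (10.7% of all tested genes were), 0 in SCNx, and 3 differed in rhythm between the groups (2.12% of all). The 9 became 3 with the rank test and 5 without Ctrl CT12, Ctrl CT24 or Ctrl CT36, and whether their share differs from that of all genes was not tested. By list, these were 0 of 3 other claudins, 2 of 9 other membrane proteins of the tight junction, 2 of 14 other plaque proteins, 1 of 11 apical polarity proteins, 3 of 10 junction regulators and 1 of 11 adherens junction proteins. The median amplitude in Ctrl over the 58 was 0.09, beside 0.11 over all tested genes.

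The clearest of them was Cdh3, P-cadherin of the adherens junction. Its log2 amplitude in Ctrl was 0.55, a 2.14-fold peak to trough difference with the peak at CT23.7 (adjusted p = 1.42e-05), against 0.18 in SCNx, and the difference of the rhythm had an adjusted p of 0.00111. Ybx3 (ZONAB), a Y-box factor that binds ZO-1 at the junction, had an amplitude of 0.37 with the peak at CT22.8 (adjusted p = 3.31e-05), against 0.22 in SCNx (adjusted p of the difference 0.0144). Prkcz, the atypical protein kinase C of the apical polarity complex, had one of 0.15 with the peak at CT23.4 (0.00573), against 0.08 in SCNx (0.0316), and this difference was lost in 9 of the 24 fits without 1 library, with adjusted p-values up to 0.0683. Marveld3, a membrane protein related to occludin, had an amplitude of 0.26 with the peak at CT19.9 (0.00466) and no difference that passed (0.333).

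Of the others, 4 are described here, with larger p-values. Wnk4, a kinase that regulates paracellular chloride passage, peaked at CT13.1 (amplitude 0.35, adjusted p = 0.0188) and Ildr2, an angulin, at CT6.80 (0.21, 0.0298). Mylk, the myosin light chain kinase, peaked at CT7.85 (0.38, 0.0319) and Rab13, a small GTPase that brings claudins to the membrane, at CT0.827 (0.17, 0.0471). Each of these 4 calls was lost in some of the 24 fits that left out 1 library. These were 2 fits for Wnk4 (without Ctrl CT12 or Ctrl CT36, adjusted p = 0.0810 and 0.0793), 6 for Ildr2, 8 for Mylk and 15 for Rab13. Of the pericyte and smooth muscle markers, Pdgfrb peaked at CT7.42 (0.38, 0.0349) and Cspg4 at CT7.80 (0.36, 0.0279) in the same fit. Rgs5, Acta2 and Myh11 peaked at CT8.25, CT7.96 and CT8.55 and did not pass. The part of such cells in the Mylk rhythm was not tested.

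Levels in SCNx were set against Ctrl with the time points pooled, as in the study. For this comparison 0 of the 9 members passed an adjusted p of 0.05 or 0.25, where 0.0% of all tested genes did, and with DESeq2 and limma-trend there were 0 as well. The fitted log2 fold change was negative for 8 of the 9, and for 43.5% of all genes, with a median of -0.10 for the members and 0.01 for all. With 3 members at an unadjusted p under 0.05 (Cldn2, Cldn3 and Ocln), beside 9.37% of all genes (4.58% with a lower value in SCNx), the differences were small and are given here with their intervals.

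Cldn2 ran from 449 CPM through a median of 558 to 620 in Ctrl and from 351 through 508 to 550 in SCNx. The groups overlapped, but each of the 12 SCNx libraries was below the median of Ctrl, and SCNx was lower at 10 of 12 times. The log2 fold change was -0.15 (95% interval from -0.27 to -0.03, p = 0.0179, adjusted p = 0.466). Without SCNx CT32, the lowest library, it was -0.12 (adjusted p = 0.461).

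Ocln ran from 134 CPM through 152 to 164 in Ctrl and from 114 through 144 to 151 in SCNx. All 12 SCNx libraries were below the Ctrl median, with overlap between the groups. The lowest SCNx values were 114 CPM at CT32 and 119 at CT0, the libraries with astrocyte and hepatocyte transcripts. The log2 fold change was -0.11 (from -0.20 to -0.02, p = 0.0245, adjusted p = 0.489). Without SCNx CT32 it was -0.09 (adjusted p = 0.520), and without Ctrl CT16 and SCNx CT0 -0.09 (adjusted p = 0.465).

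Cldn3 ran from 12.3 CPM through 14.8 to 16.9 in Ctrl and from 8.68 at CT32 through 11.9 to 18.14 at CT0 in SCNx, so that both ends of its range were SCNx libraries. These were the SCNx libraries with the most astrocyte (CT32) and hepatocyte (CT0) transcripts. The log2 fold change was -0.20 (from -0.38 to -0.01, p = 0.0355, adjusted p = 0.495). Without SCNx CT32 it was -0.16 (adjusted p = 0.579), and without Ctrl CT16 and SCNx CT0 -0.25 (adjusted p = 0.332).

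Tjp1 was the member with a positive value. It ran from 68.2 CPM through 79.3 to 94.6 in Ctrl and from 77.03 through 83.2 to 110 in SCNx, highest at SCNx CT32, and 2 of the 12 SCNx libraries were below the Ctrl median. The log2 fold change was 0.11 (from -0.01 to 0.24, adjusted p = 0.568). Without SCNx CT32 it was 0.08 (adjusted p = 0.715).

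The log2 fold changes of Cldn1, Cldn12, Tjp3 and Cgn were -0.10, -0.06, -0.04 and -0.03, with intervals that reached at most -0.23 and 0.08. Without SCNx CT32, the value of Tjp3 was -0.00918. Leaving out 1 library also moved Cldn12 to -0.04 (without Ctrl CT16), Tjp3 to between -0.07 (without Ctrl CT4) and -0.03 (without Ctrl CT24), and Cgn to between -0.06 (without SCNx CT36) and -0.02 (without Ctrl CT20 or SCNx CT16). That of Cldn5 was -0.10 with an interval from -0.50 to 0.29, and its SCNx libraries ran from 2.46 CPM at CT28 through 4.09 to 9.52 at CT44. With 1 library left out it ran from -0.27 (without SCNx CT44) to -0.03 (without Ctrl CT4 or Ctrl CT16), and it also moved by over 1.5 times without Ctrl CT24, Ctrl CT28, SCNx CT28 or SCNx CT36.

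**Figure D3:**
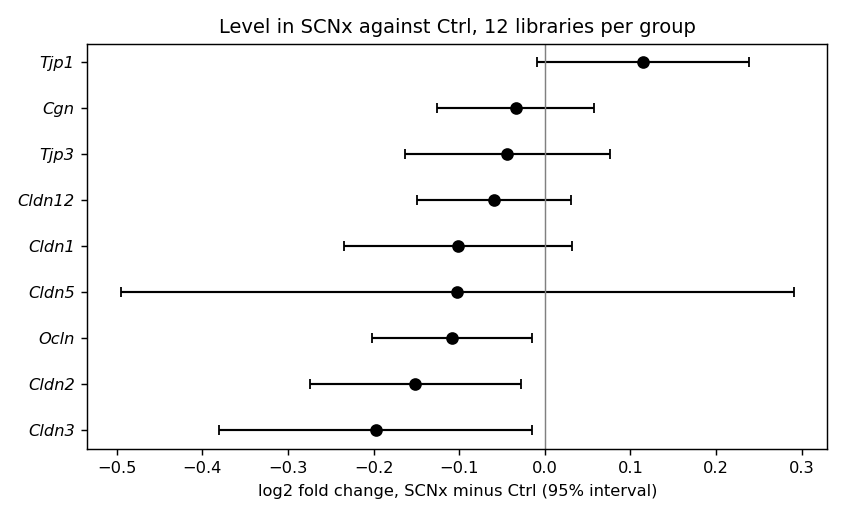
Log2 fold change of each member, SCNx minus Ctrl, over 12 libraries per group, with its 95% interval from edgeR's fit and no adjustment for the number of genes. The intervals of Cldn3, Cldn2 and Ocln lie below 0, and their adjusted p-values lie between 0.466 and 0.495.

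These levels moved with the summed CPM of cell type markers. In a whole tissue, fewer cells of a type and less RNA per cell cannot be told apart. Across the 24 libraries, which share the time course and the scaling, log2 CPM of Cldn2 had a Pearson r of 0.89 with the log2 sum of the 10 epithelial markers (0.86 within Ctrl, 0.93 within SCNx, 0.75 without SCNx CT32). The r with the same sum was 0.79 for Tjp3, 0.75 for Ocln, 0.62 for Cldn1, 0.60 for Cldn3, 0.44 for Cgn and 0.30 for Cldn12. Without SCNx CT32 it fell to 0.44 for Tjp3, 0.59 for Ocln, 0.55 for Cldn1, 0.32 for Cldn3 and 0.27 for Cgn. For Cldn12 it rose to 0.49, so the order of the members depended on that library. Ttr and Enpp2, with Ctrl means of 89221 and 59051 CPM, made up most of this sum, so r mainly follows their mRNA.

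Tjp1 and Cldn5 ran otherwise. The r of Tjp1 was -0.67 with the epithelial sum, 0.76 with the sum of the 11 endothelial markers and 0.76 with that of the 5 markers of pericytes and smooth muscle, and the last 2 were 0.75 and 0.77 without SCNx CT32. With the macrophage sum the r of Tjp1 was 0.67 (0.83 within Ctrl, 0.43 within SCNx). Within Ctrl it was 0.82 with the endothelial, 0.75 with the ependymal and 0.72 with the fibroblast sum. Within SCNx these values were 0.64, -0.25 and -0.31. ZO-1 is known from both epithelial and endothelial junctions. The endothelial sum ran from 167 to 399 CPM in Ctrl with a median of 254, and from 192 to 481 in SCNx with a median of 329. For Cldn5, the claudin of brain endothelium, r was 0.05 with the endothelial sum and -0.14 with the epithelial sum.

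With the log2 epithelial sum added to the model, an alternative chosen after the data were seen, the log2 fold change in SCNx was -0.05 for Cldn2, -0.05 for Ocln, -0.11 for Cldn3 and 0.04 for Tjp1. Under this fit 6 of the 9 members were negative, and the values of Tjp3 and Cgn turned to 0.05 and 0.003. Most of that sum was Ttr and Enpp2. Their own log2 fold changes in SCNx were -0.12 and -0.07 in edgeR's level test (adjusted p = 0.567 and 0.697). The part of the tissue makeup in the differences was not tested further.

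**Figure D4:**
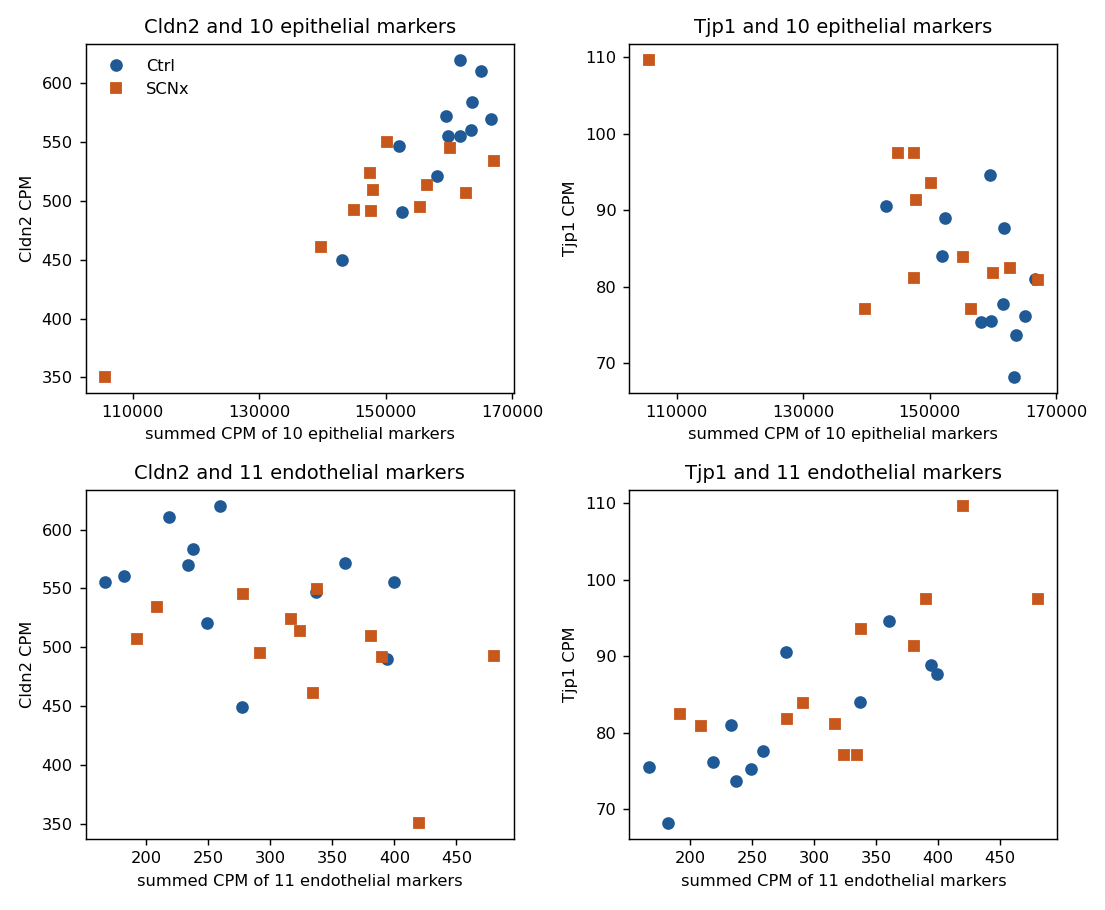
CPM of Cldn2 (left) and Tjp1 (right) against the summed CPM of 10 epithelial markers (top) and 11 endothelial markers (bottom), with 1 point per library, Ctrl as blue circles and SCNx as orange squares; the axes do not start at 0. SCNx CT32 is the point at an epithelial sum of 105600, with Cldn2 at 351 CPM and Tjp1 at 110.

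Among themselves the members fell into no single pattern. Cldn2 had an r of 0.79 with Ocln (0.66 without SCNx CT32) and of 0.71 with Cldn1 (0.64). Tjp1 and Tjp3 ran against each other, with an r of -0.73 over the 24 libraries, -0.73 within Ctrl, -0.74 within SCNx and -0.61 without SCNx CT32. Cldn1 and Cldn5 did so too, with -0.63, -0.71 within each group and -0.66 without that library. These values are descriptions over libraries that share scaling and tissue makeup.

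By the same r over 24 libraries, the tested genes most like Cldn2 were Cacfd1 (0.92), Mfrp (0.91) and Tmem115 (0.90). Those most like Cldn1 were Fbxo46 (0.83), Zswim4 (0.80) and Atp1b1 (0.78), the beta subunit of the sodium-potassium pump. Those most like Cldn5 were Bmx (0.72), Gltp (0.64) and Marchf2 (0.63).

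The KO libraries were set beside Ctrl to see the members in mice whose clock gene Bmal1 was targeted. Arntl, the gene of BMAL1, had 12.9 CPM at ZT7 and 10.7 at ZT18, within the range of Ctrl from 1.97 to 39.2. The reads of the gene outside the deleted part are counted too, so this value says little about the deletion. CPM in this comparison were scaled over all 26 libraries. There is 1 mouse per time and no test.

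Both KO libraries were outside the range of the 12 Ctrl libraries for 4 of the 9 members, where this held for 55.8% of all tested genes (28.9% below and 26.8% above). Cldn2 and Cldn12 were below and Tjp1 and Cgn above. Cldn2 had 225 CPM at ZT7 and 204 at ZT18, against 444 to 607 in Ctrl, on average 39.3% of the Ctrl mean. Cldn12 had 26.3 and 27.6 CPM, against 35.6 to 49.0. Tjp1 had 131 and 202 CPM, against 67.2 to 94.6, and Cgn 79.4 and 78.9, against 59.8 to 75.5.

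For the other 5 members only 1 of the 2 mice was outside the range of Ctrl. Cldn1 had 221 and 169 CPM at ZT7 and ZT18 (Ctrl 194 to 284), and Ocln 147 and 103 (Ctrl 133 to 163). Cldn3 had 10.4 and 13.1 (Ctrl 12.1 to 16.8) and Tjp3 43.5 and 57.8 (Ctrl 51.2 to 69.3). Cldn5 had 3.36 and 8.41 (Ctrl 2.91 to 7.19), resting on 48 and 133 counts. The 2 KO mice differed by 0.62 on the log2 scale for Tjp1 (ZT18 over ZT7) and by 1.32 for Cldn5. In Ctrl, the mean of CT16 and CT20 over CT8 was -0.05 for Tjp1 and 0.91 for Cldn5, and the same a cycle later was -0.12 and -0.32.

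Markers of several other cell types, but not of all, were higher in the KO libraries, and their part in the members' values was not tested. Of the 10 epithelial markers, 9 were below the Ctrl range in both, and their sum was 104943 and 93261 CPM against 141352 to 165453 in Ctrl. The astrocyte sum was 916 and 986 CPM (Ctrl 24.3 to 697), with 4 of 5 markers above the Ctrl range in both, and all 5 oligodendrocyte markers were above it. The endothelial sum was 400 and 460 CPM (Ctrl 163 to 395), with 2 of 11 markers above. The ependymal sum was 101 and 77.3 CPM (Ctrl 43.6 to 63.3). The sums of pericyte and smooth muscle markers (325 and 384, Ctrl 142 to 371) and of neuron markers (228 and 302, Ctrl 9.16 to 299.5) were above the range in 1 mouse. The fibroblast sum was 308 and 466 CPM (Ctrl 341 to 481), below the range in 1 mouse. The sums of macrophage markers (53.2 and 58.8, Ctrl 38.2 to 63.8) and hepatocyte markers were within the range. However, 3 of the 5 macrophage markers were above their Ctrl range in both mice. The sum for blood-brain barrier endothelium was below the range (530.3 and 465, Ctrl 814 to 957), but only 1 of its 5 markers was below in both. Slco1c1 made up most of that sum, with a mean of 699 CPM in Ctrl, where the median of the sum was 879. The 11 endothelial markers together had a Ctrl median of 254 CPM. The sum for blood-brain barrier endothelium thus mainly followed Slco1c1, and less endothelium in the KO libraries was not shown by it. Ttr and Enpp2 made up most of the epithelial sum, with 50858 and 47848 CPM at KO ZT7. Among the other epithelial markers, Folr1 had 307 and 263 CPM (Ctrl 542 to 712) and Kcne2 490 and 409 (Ctrl 721 to 1124). Prlr was inside its range (753 and 553, Ctrl 510 to 1260). Per 100000 CPM of the epithelial sum, Cldn2 was still below Ctrl, with 212 and 217 against 313 to 383. Whether it stands apart from other epithelial genes was not tested. Cldn12 was inside its range, with 24.8 and 29.3 against 23.7 to 30.6. On this scale Cldn1, Ocln, Tjp1 and Cgn were above the range in both mice. The sum was lower in both KO mice than in any Ctrl library, so this scale raises every KO value against Ctrl. The share of all tested genes outside the range was not computed for it. With CPM scaled to the library total alone, 6 members were below (Cldn1, Cldn2, Cldn3, Cldn12, Ocln and Tjp3) and Tjp1 above, where 57.3% of all genes were outside (40.4% below and 16.9% above). Cldn2 was below and Tjp1 above Ctrl on all 3 scales, and for the other members except Cldn5, which was in or across the range on each, the position against the Ctrl range depended on the scale.

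**Figure D5:**
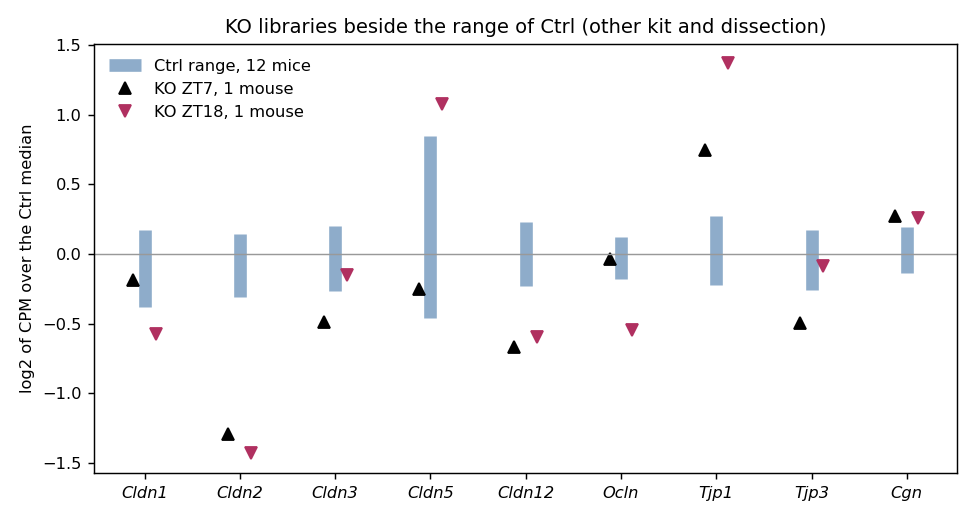
Log2 of CPM (TMM over 26 libraries) over the Ctrl median for each member, with the range of the 12 Ctrl libraries as a bar and the KO mice at ZT7 and ZT18 as triangles pointing up and down. Both KO mice lie below the bar for Cldn2 and Cldn12 and above it for Tjp1 and Cgn.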

How the data were processed

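RNA-seq of mouse ChP was analysed for 12 Ctrl, 12 SCNx and 2 KO mice. The authors aligned single-end reads to GRCm39 and deposited Salmon's estimated counts for each gene without normalization. STAR, Salmon 1.9.0, cutadapt 3.4, SAMtools 1.16.1 and StringTie 2.2.1 are named in the submitters' processing notes. Estimated counts were rounded to whole numbers. The 13697 genes whose mean CPM reached 1 in both Ctrl and SCNx were tested with edgeR 4.0.16 under R 4.3.3: TMM scaling, quasi-likelihood F tests and Benjamini-Hochberg adjustment over all tested genes, at a threshold of 0.05. One model had a mean, 24 h cosine and 24 h sine per group, another a mean per group. Amplitudes and peak times came from least squares on log2 CPM (prior count 1), and so did their standard errors and 95% limits. Nothing in the labels says more of the replicates than that each library is 1 mouse. No pair of libraries had identical counts. Libraries held 17425176 to 49527614 counts, and the counts of a member in a Ctrl or SCNx library ran from 106 (Cldn5) to 27439 (Cldn2), which limits the precision of Cldn5 most.

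Named were the 9 members, the junction genes called in any test (1 is counted in its list and not reported here by name), and for Cldn1, Cldn2 and Cldn5 the 3 genes with the highest r. Members and gene lists were chosen with earlier results of these data known. The fits and the rank test (Python 3.11.15, numpy 2.4.6) were tested on simulated data. The simulated rhythms and level changes were larger than those of the members in Ctrl and between the groups. How often changes of the members' size would be found was therefore not tested. Alternatives were DESeq2 1.42.0, its size factors, limma-trend (limma 3.58.1), the rank test, other minimum levels, a time trend, a circadian time block, a separate fit per group, each library left out, and, added later, pairs of libraries left out and an epithelial covariate. RefSeq promoters and GENCODE M21 lengths are of GRCm38, so gene coordinates of the counted genes are not given.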

Additional observations from a re-analysis of the deposited data

Results flagged for a closer look

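The rhythm of 3 junction genes outside the 9 members differed between Ctrl and SCNx in edgeR's test of the difference itself. The adjusted p was 0.00111 for Cdh3, 0.0144 for Ybx3 and 0.0316 for Prkcz, with log2 amplitudes of 0.55, 0.37 and 0.15 in Ctrl and 0.18, 0.22 and 0.08 in SCNx. Cdh3 and Ybx3 passed in all 34 alternative fits of this difference, and Prkcz in 23 of 34. With 12 libraries in each group, no member was tested for single libraries that stand apart.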

How the results depend on the processing

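The number of members with a 24 h rhythm in Ctrl, 0 in the reported fit, was 1 with DESeq2 (Cldn12), 1 with a linear trend over time (Cldn12), 1 without Ctrl CT4 and SCNx CT32 (Tjp3), and 0 to 1 over the 24 fits that left out 1 library, with the 1 (Cldn12) when SCNx CT28 was left out. The number stayed at 0 in all alternatives run for the rhythm in SCNx, the difference of the rhythm and the level. The 9 wider junction genes with a rhythm in Ctrl became 5 without a filter on low counts, 3 with the rank test and 5 to 12 with 1 library left out (5 without Ctrl CT12, CT24 or CT36). Without a filter and with DESeq2, 1 wider gene (Ybx3) was called in SCNx. The 3 differences of the rhythm became 2 to 4 with 1 library left out. The cause of these changes was not tested. With the epithelial covariate, the level in SCNx turned to 0.0482 for Tjp3 and 0.00297 for Cgn (log2 fold change). The median level of the members in Ctrl was 11.5 CPM per kb and 13.5 with the longest coding transcript as the length. The number of members with both KO mice outside the Ctrl range on the same side was 4, and 7 with CPM scaled to the total alone. On that last scale Cldn5 was below the range at ZT7 (2.75, lowest Ctrl 3.03) and above it at ZT18 (7.36, highest Ctrl 7.11). DESeq2 gave no adjusted p for the level of Cldn5. The labels give no replicate numbers. In the paired analysis that matched the mice of the groups by circadian time, as a block, 0 members were called in the level comparison, and the log2 fold change of Cldn2 was -0.15 (adjusted p = 0.696).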
